A study of Mus musculus with 6 samples.

Results

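Nascent RNA of 10 genes of the Hippo pathway was followed in mouse embryonic stem cells before and 2 h after activation of RAF and ERK signalling. The genes were taken by symbol from a table of 25899 genes. They are the kinases Lats1 and Lats2, the coactivators Yap1 and Wwtr1 (which encodes TAZ), the DNA-binding factors Tead1, Tead2, Tead3 and Tead4, and the angiomotins Amotl1 and Amotl2. All 10 had a row in the table, and 9 of them had enough reads to be tested; the exception was Lats2.

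In the Hippo pathway, LATS kinases phosphorylate YAP and TAZ, which keeps these coactivators in the cytoplasm and marks them for degradation. Unphosphorylated YAP and TAZ enter the nucleus and bind TEAD factors, which carry the DNA contact and have little activating power of their own. Angiomotins hold YAP at junctions and actin filaments and help LATS act on it. In the early embryo, TEAD4 with nuclear YAP starts the trophectoderm programme of the outer cells, whereas LATS activity and angiomotins keep YAP out of the nucleus in the inner cells, from which embryonic stem cells derive.

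The cells were E14tg2a mouse embryonic stem cells (129SV background) with a stably integrated cRAF-ErT2 cassette, a RAF kinase fused to a receptor domain that 4-hydroxytamoxifen (4OHT) switches on. Both groups had been kept in serum and LIF with 2 µM Chir99021, a GSK3 inhibitor, and then for 24 h in serum and LIF with 250 nM PD173074, an FGF receptor inhibitor. One group was left untreated and the other received 250 nM 4OHT for 2 h; each held 1 library from each of the clones a, b and c (n = 3 per group). RNA made in the last 15 min was labelled with 5 mM ethynyl uridine (EU), purified and sequenced (EU-seq), so the values follow synthesis more closely than they follow the stored mRNA. The labels name neither a solvent control nor cassette-free cells given 4OHT, and the cassette's promoter is not stated, so effects of 4OHT itself and of RAF activation cannot be told apart.

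Total counts per library ranged from 9745747 to 12168380 in the untreated group and from 7295334 to 9431819 after 4OHT. The immediate ERK target Fos rose from 4.20 ± 0.63 CPM to 132 ± 8.7 (SD, n = 3 each; CPM, counts relative to library size, use TMM effective sizes throughout), Dusp6 from 29.8 ± 3.4 to 131 ± 6.8 and Etv4 from 6.37 ± 1.89 to 68.2 ± 11.2. All 10 markers of embryonic stem cells were detected, with a summed level of 3145 to 3283 CPM in untreated libraries and 2232 to 2692 CPM after 4OHT. By the test used below, 6 of the 10 fell and 2 rose, with a median log2 fold change of -0.76. Over all tested genes 28.6% fell and 28.5% rose. Tdgf1 (-1.33), Sall4 (-1.15), Nanog (-1.66) and Esrrb (-1.32) fell most clearly, while Zfp42 (0.67) and Pou5f1 (0.36) rose. Markers of other cell types were low. The 8 trophoblast markers summed to 23.7 to 35.3 CPM against 26.5 to 34.2, with Tpbpa at 0, the 8 primitive endoderm markers to 7.37 to 10.7 against 9.03 to 11.4, with Afp at 0, and the 9 fibroblast markers to 2.73 to 3.23 against 3.59 to 5.70, with Postn and Lum at 0. Gata3 alone had 22.8 ± 6.1 and 22.9 ± 2.9 CPM. By the test used below, the trophoblast marker Hand1 rose (0.43 to 2.28 CPM) and Gcm1 fell (1.37 to 0.28 CPM). Among fibroblast markers Col1a1 rose (0.26 to 2.91 CPM) and Pdgfrb fell (1.69 to 0.89 CPM). No primitive endoderm marker passed. The part of other cell types in the results below was not tested.

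After 4OHT, Tead4 and Yap1 rose, Tead2, Amotl1 and Amotl2 fell, and Wwtr1, Tead1, Tead3 and Lats1 did not pass the test (edgeR quasi-likelihood, adjusted p below 0.05 over all tested genes). The changes of Tead4, Amotl1 and Amotl2 were the ones above 1 in size on the log2 scale. In bulk cultures such as these, fewer cells of a type and less RNA per cell cannot be told apart. Counted over the list, 2 of 9 tested members were higher (22.2%), where 28.5% of the 13869 tested genes were, and 3 of 9 were lower (33.3%), where 28.6% of all tested genes were. In either direction 5 of 9 were called (55.6%) against 57.1% of all genes, a share near that of the background. With a log2 fold change of at least 1, 1 of 9 members was higher (11.1%, against 6.83% of all tested genes) and 2 of 9 were lower (22.2%, against 9.55%). The CPM ranges of the groups did not overlap for 5 of 9 members (55.6%), against 63.3% of all tested genes. The median log2 fold change was -0.05 over the 9 members and -0.000535 over all tested genes.

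**Figure D1:**
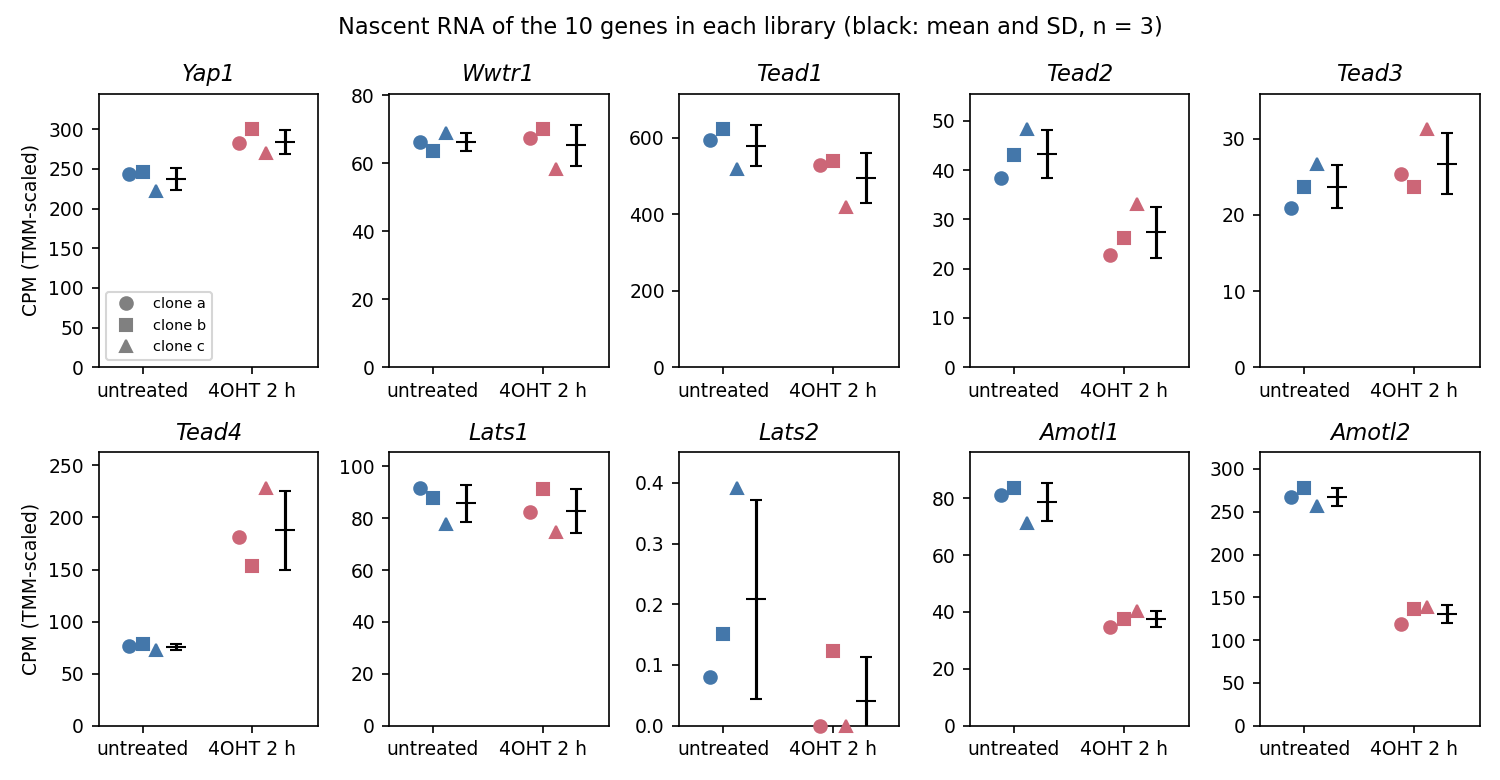
CPM of each of the 10 genes (vertical axes start at 0 and differ between panels) in the untreated (blue) and 4OHT (red) libraries; symbols mark clones a, b and c, and black bars give the mean and SD of 3 libraries. The groups are apart for Yap1, Tead2, Tead4, Amotl1 and Amotl2, and they overlap for Wwtr1, Tead1, Tead3 and Lats1, while Lats2 stays below 0.4 CPM.

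These calls rest on a scaling that sets the middle of all genes to about no change. Scaling by library size alone lowered all log2 fold changes by about 0.2 (median shift -0.2) and moved the share of higher calls among all calls from 49.9% to 29.7%. With upper-quartile scaling the shift was -0.10 and the share was 39.9%. The calls of Yap1, Wwtr1, Tead1 and Lats1 and the sign of Tead3 depended on the scaling, and these genes are given below with their values under library size alone.

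The first member by role is Lats1, a kinase that phosphorylates YAP and TAZ directly. Its level was 91.8, 87.8 and 77.9 CPM in the untreated libraries of clones a, b and c, and 82.2, 91.3 and 74.5 CPM after 4OHT. The groups overlapped, and in both of them clone c was the lowest. The log2 fold change of Lats1 was -0.05 ± 0.09 (SE; edgeR adjusted p = 0.635), and it was -0.25 (adjusted p = 0.04) when scaled by library size alone, which is close to the shift of all genes under that scaling.

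Lats2, the second LATS kinase, had 1, 2 and 4 reads in the untreated libraries and 0, 1 and 0 reads after 4OHT. A total of 3 reads corresponds to 0.228 to 0.438 CPM in these libraries, so the row sits at the limit of detection. The depth-scaled ratio of 4OHT to untreated was 0.216 with an exact 95% interval of 0.0048 to 1.68, which covers counting error only, and no change was detectable with so few reads. The low row does not by itself show a silent gene. Lats2 lies on the minus strand of chromosome 14 (chr14:57689662-57758388, GRCm38), and 2955 of its 6971 exonic bases (42.4%) are also exons of Gm49361, a protein-coding model on the same strand (chr14:57642077-57746103). The remaining 4016 exonic bases of Lats2 are not shared. Gm49361 had 179, 194 and 145 reads untreated and 105, 71 and 83 reads after 4OHT, and was called lower (log2 fold change -0.40, edgeR adjusted p = 0.0323). Of the exonic bases of Gm49361, 89.9% are also exons of Lats2. A further 332 bases are shared with exons of Xpo4 on the same strand, which had 8529 reads over all libraries. The call of Gm49361 can therefore not be read as that of a separate gene. How reads shared by overlapping genes were counted is not given in the sources used here, and how it bears on Lats2 was not tested.

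Yap1 encodes YAP, the coactivator that LATS kinases inhibit. On the log2 CPM scale its level was 7.93, 7.94 and 7.79 in untreated libraries of clones a, b and c, and 8.15, 8.23 and 8.08 in the treated ones; the group means were 237 ± 13 and 284 ± 15 CPM (SD, n = 3). Every treated library was above every untreated one, and each clone rose, by 0.21, 0.29 and 0.28 on the log2 scale. The log2 fold change was 0.26 ± 0.07 (SE; edgeR adjusted p = 0.00822), larger than that of 69.9% of all tested genes. When scaled by library size alone it was 0.06 (adjusted p = 0.508), and with upper-quartile scaling it was 0.16 (adjusted p = 0.0514), so the call of Yap1 was lost in both. Gm20416, an annotated transcript on the opposite strand, shares exonic bases with Yap1. The call of Yap1 was also lost when both libraries of clone a (adjusted p = 0.0538) or of clone b (adjusted p = 0.0876) were left out.

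Wwtr1 encodes TAZ, the paralog of YAP. Its levels were 66.4, 63.5 and 69.0 CPM untreated and 67.4, 70.0 and 58.5 CPM after 4OHT, and the groups overlapped. The clones did not move together, with log2 changes of 0.02 in clone a, 0.14 in clone b and -0.24 in clone c. The fitted log2 fold change was -0.02 ± 0.08 (SE; edgeR adjusted p = 0.857), and -0.22 (adjusted p = 0.0349) when scaled by library size alone. Its sign depended on clone c: without the treated library of that clone it was 0.06.

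Set against each other inside a library, the coactivators do not need any scaling. The ratio of Wwtr1 reads to Yap1 reads (not corrected for length) was 0.272, 0.258 and 0.311 in the untreated libraries and 0.238, 0.233 and 0.217 in the treated ones (clones a, b and c in this order, as below). All treated ratios were below all untreated ones, and the log2 ratio differed by -0.29 ± 0.09 (SE). With 3 libraries against 3, the exact two-sided permutation test cannot give a p below 0.1, which is the value it gave here (adjusted over the 8 ratios examined, p = 0.16).

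Tead4, the TEAD factor needed for trophectoderm in the embryo, had the largest rise among the 9 tested members. The untreated libraries had 76.5, 78.3 and 72.4 CPM, and the treated ones 181, 154 and 229 CPM. The untreated libraries were close together and the treated ones spread out, with clone c highest and clone b lowest. The log2 fold change was 1.31 ± 0.12 (SE; edgeR adjusted p = 1.21e-05), above that of 95.5% of all tested genes, and the single clones rose by 1.24, 0.97 and 1.66. It kept its direction and its call under each of the 20 alternative settings, with values from 1.09 to 1.46.

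Tead2, the TEAD gene best known from early embryos and neural precursors, fell. Its levels were 38.5, 43.1 and 48.3 CPM untreated and 22.8, 26.2 and 33.0 CPM after 4OHT, so the groups did not overlap, and in both of them clone a was lowest and clone c highest. The log2 fold change was -0.67 ± 0.13 (SE; edgeR adjusted p = 0.00181), with -0.75, -0.71 and -0.55 in the single clones. The 3′ end of Tead2 overlaps Cd37 on the opposite strand, which had 120 reads over all libraries.

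Tead1, the most widely expressed TEAD gene, had 596, 623 and 519 CPM in untreated libraries and 528, 539 and 418 CPM after 4OHT. The groups overlapped because clone c was low in both, yet each clone was lower after 4OHT, by -0.17, -0.21 and -0.31 on the log2 scale. Without regard to clones the log2 fold change was -0.23 ± 0.10 (SE; edgeR adjusted p = 0.09). With the clone as a replicate block, in which each treated library is paired with the untreated library of its clone, it was -0.23 with an adjusted p of 0.000101, and Tead1 then passed the test. Scaled by library size alone it was -0.43 (adjusted p = 0.00644), and with upper-quartile scaling -0.33 (adjusted p = 0.017). Without the untreated library of clone c it was -0.31 (adjusted p = 0.018), and without both libraries of clone c it was -0.22 (adjusted p = 0.000509).

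Tead3, the TEAD gene with the fewest reads here, had 20.9, 23.6 and 26.7 CPM untreated and 25.4, 23.6 and 31.3 CPM after 4OHT. The groups overlapped, and clone b had 23.6 CPM in both conditions. The log2 fold change was 0.17 ± 0.13 (SE; edgeR adjusted p = 0.285), and it changed sign to -0.03 (adjusted p = 0.869) when scaled by library size alone.

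The 4 TEAD genes together gave 731, 768 and 666 CPM in the untreated libraries and 758, 742 and 711 CPM after 4OHT. That sum is of reads not corrected for length, 80.1 ± 2.0% of them from Tead1 in untreated libraries. Its ranges overlapped, while its makeup differed between the groups. Corrected for length, the sum need not be alike in the groups, and a share also falls where the other genes rise. Per kilobase of exon, Tead4 went from 21.0 ± 0.8 to 52.2 ± 10.5 CPM and Tead3 from 3.53 ± 0.43 to 3.99 ± 0.60. Tead1 went from 42.7 ± 4.0 to 36.5 ± 4.9 and Tead2 from 9.04 ± 1.03 to 5.72 ± 1.08. Counted as reads per kilobase of annotated exon, Tead1 made up 55.9 ± 2.7% of TEAD signal in untreated cells and 37.4 ± 7.4% after 4OHT (SD, n = 3 each). The share of Tead4 went from 27.6 ± 0.4% to 52.7 ± 6.7%, that of Tead2 from 11.9 ± 1.8% to 5.79 ± 0.84%, and that of Tead3 from 4.65 ± 0.73% to 4.04 ± 0.31%. On this scale Tead1 had the largest share in all 3 untreated libraries and Tead4 in all 3 treated ones. Counted per kilobase of the whole gene, introns included, the picture differed: Tead1 and Tead2 had similar shares in untreated cells (35.4 ± 3.7% and 33.6 ± 2.9%), and Tead4 went from 13.8 ± 0.8%, the smallest share, to 32.3 ± 3.8%, beside 29.1 ± 6.1% for Tead1 after 4OHT. Per gene span the ranking by library was not the same: Tead2 (36.9%) was above Tead1 (31.2%) in untreated clone c, and Tead1 (33.5%) was above Tead4 (28.4%) in treated clone b. Whether reads were counted over exons or over whole genes is not given in the sources used here, so both are shown. Over 13744 tested genes the mean count correlated with exon length (Spearman rho = 0.332) and with gene span (rho = 0.228). Both values are low, and they do not settle which feature was counted. The rise in the share of Tead4 and the drop in that of Tead2 were without overlap between groups on both scales.

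**Figure D2:**
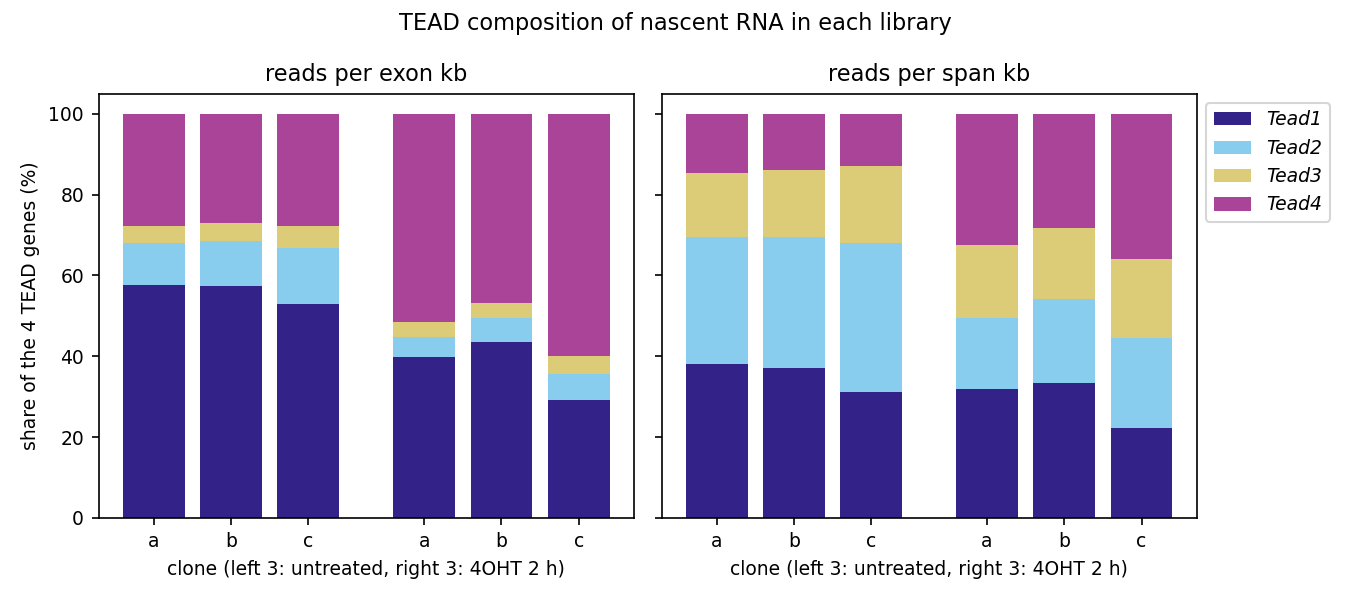
Share of each TEAD gene in the summed TEAD signal of each library (vertical axis, percent), per kilobase of annotated exon (left) and per kilobase of gene span (right), for clones a, b and c untreated and after 4OHT. Tead4 takes 46.7% to 60.0% of the signal per exon kilobase after 4OHT against 27.1% to 27.9% untreated.

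Ratios of reads between 2 TEAD genes in the same library are not changed by any scaling. The ratio of Tead4 to Tead2 was 1.99, 1.81 and 1.5 before treatment (clones a, b, c) and 7.93, 5.86 and 6.92 afterwards, a 3.90-fold change of the geometric mean. For Tead4 to Tead1 the geometric mean went from 0.131 to 0.377, and for Tead4 to Tead3 from 3.21 to 6.98. The ratio of Tead3 to Tead2 was 0.544, 0.547 and 0.552 untreated and 1.11, 0.901 and 0.947 after 4OHT. These 4 ratios did not overlap between the groups (exact two-sided permutation p = 0.1 each, adjusted p = 0.16, the smallest p the design allows being 0.1). Ratios that share Tead4 are not separate observations, and how often ratios of other genes overlap was not computed. The ratios of Tead2 to Tead1 and of Tead3 to Tead1 overlapped (exact permutation p = 0.3, adjusted p = 0.343 for both).

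Amotl1 and Amotl2, the angiomotins that bind YAP and actin, both fell to about the same extent. Amotl2 had 267, 278 and 257 CPM in the untreated libraries and 118, 136 and 138 CPM after 4OHT. Amotl1 had 81.1, 83.7 and 71.2 CPM untreated and 34.6, 37.5 and 40.3 CPM after 4OHT. For both genes the groups were far apart. The log2 fold change was -1.03 ± 0.07 for Amotl2 (SE; edgeR adjusted p = 1.85e-06) and -1.07 ± 0.09 for Amotl1 (edgeR adjusted p = 4.82e-06), and a lower value than these was found for 9.14% and 8.39% of all tested genes. In both genes the drop was largest in clone a (-1.17 and -1.22) and smallest in clone c (-0.89 and -0.82). Both kept direction and call under each of the 20 alternatives, with ranges of -1.23 to -0.96 and -1.28 to -0.996. The ratio of Amotl2 to Amotl1 reads within a library was 3.29, 3.32 and 3.61 untreated and 3.42, 3.62 and 3.42 after 4OHT, a log2 difference of 0.04 ± 0.05 (SE; exact permutation p = 0.5, adjusted p = 0.5). The third gene of the family, Amot, moved the other way: its level rose from 10.4 ± 3.4 to 18.4 ± 4.0 CPM (log2 fold change 0.82 ± 0.23, edgeR adjusted p = 0.0111). It is named here after its values were seen.

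**Figure D3:**
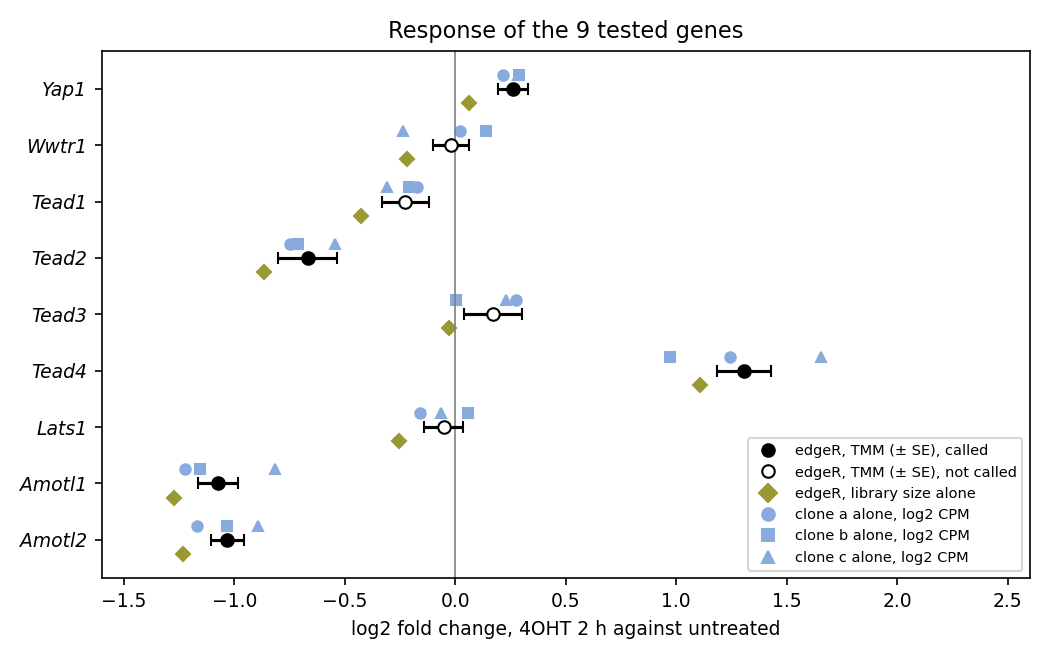
Log2 fold change of the 9 tested genes, 4OHT against untreated (horizontal axis): black circles give the edgeR estimate with its SE, filled where called, blue symbols the change in each clone alone, and diamonds the estimate when scaled by library size alone. Tead4 lies above 1, Amotl1 and Amotl2 lie below -1, and the diamonds lie about 0.2 to the left of the circles.

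Because Amotl1 and Amotl2 moved together, promoter windows of both are shown, from 250 bases before to 50 bases after a RefSeq start site (GRCm38.p6), in the gene's own direction. Such a window was at hand for 8 of the 10 genes, with 12 windows in all. Those of Amotl1 and Amotl2 lie inside the genes as annotated in GENCODE, whose outermost starts are chr9:14645056 (Amotl1, minus strand) and chr9:102716672 (Amotl2, plus strand). They belong to internal start sites, and the sequence before the outermost starts of these 2 genes was not searched. Printed are the stretches outside annotated UTRs and, for Amotl2 and Yap1, 30 bases around a match to the TEAD motif, in capitals. The motifs searched on both strands were the TEAD core GGAATG, the ETS site CCGGAAGT, the AP-1 site TGANTCA, the EGR site GCGNGGGCG and the CArG box, all chosen with the values known.
Amotl1 promoter, chr9:14615007-14615200, minus strand: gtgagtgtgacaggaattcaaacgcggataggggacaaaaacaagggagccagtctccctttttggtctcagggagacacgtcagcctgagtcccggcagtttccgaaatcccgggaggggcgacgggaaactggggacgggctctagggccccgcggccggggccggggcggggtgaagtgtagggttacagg
Amotl2 promoter, chr9:102717554-102717667, plus strand: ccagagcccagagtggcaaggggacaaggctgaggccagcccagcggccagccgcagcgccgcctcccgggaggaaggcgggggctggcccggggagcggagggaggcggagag
Amotl2 TEAD match, chr9:102717727-102717756, plus strand: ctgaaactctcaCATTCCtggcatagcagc
Yap1 TEAD match, chr9:8004720-8004749, minus strand: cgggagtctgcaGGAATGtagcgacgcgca

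The window of Amotl2 held the TEAD core on the reverse strand, as CATTCC, from base -65 relative to the start site (chr9:102717739-102717744), inside an annotated UTR. The window of Amotl1 held none of the 5 motifs. That of Yap1 held GGAATG from base -141 (chr9:8004732-8004737) and the EGR site, as GCGCGGGCG, from base -30. The TEAD core also occurred in windows of Wwtr1, Tead3 and Lats2, and no motif matched in those of Tead2 and Lats1. The TEAD core occurs in 14.7% of all 32851 promoter windows, the EGR site in 5.55%, the AP-1 site in 7.81%, the ETS site in 3.89% and the CArG box in 1.63%. These shares are per window, whereas the matches above are given by gene, and Wwtr1, Tead3 and Lats2 had 2, 3 and 2 windows. The shares therefore cannot be set against the number of genes with a match. A match is a string of letters and not a bound site.

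Levels can be compared between genes only per length. Per kilobase of annotated exon, the untreated cells had the highest levels for Tead1 (42.7 ± 4.0 CPM per kb, SD, n = 3) and Amotl2 (42.5 ± 1.7), whose ranges overlapped. They were followed by Yap1 (25.6 ± 1.4), Tead4 (21.0 ± 0.8), Wwtr1 (13.9 ± 0.6) and Lats1 (11.8 ± 1.0), each range apart from the next. Tead2 (9.04 ± 1.03) and Amotl1 (7.82 ± 0.66) overlapped each other, Tead3 came at 3.53 ± 0.43, and Lats2 was lowest at 0.030 ± 0.023. After 4OHT, Tead4 stood first (52.2 ± 10.5), followed by Tead1 (36.5 ± 4.9) and Yap1 (30.7 ± 1.6), which overlapped, then by Amotl2 (20.8 ± 1.7). Wwtr1 (13.7 ± 1.3) and Lats1 (11.3 ± 1.2) overlapped, as did Tead3 (3.99 ± 0.60) and Amotl1 (3.72 ± 0.28), with Tead2 (5.72 ± 1.08) between these pairs. The coactivator and kinase genes had the same order of means in both conditions (Yap1, Wwtr1, Lats1, Lats2), whereas Tead4 went from below Tead1, Amotl2 and Yap1 to above them.

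Per kilobase of gene span the order was another one. Amotl2, with the shortest span (16.7 kb), stood far above the rest at 16.0 ± 0.6 CPM per kb of span untreated and 7.81 ± 0.64 after 4OHT. Yap1 came next in both conditions, with 3.27 ± 0.18 and 3.92 ± 0.21. Tead1, with a span of 227 kb, had 2.55 ± 0.24 untreated and 2.18 ± 0.29 after 4OHT, when its range overlapped those of Tead4 (2.45 ± 0.50) and Lats1 (2.35 ± 0.24). Wwtr1 was lowest of the tested genes in untreated cells at 0.551 ± 0.023, and Amotl1 was lowest after 4OHT at 0.364 ± 0.028. Yap1 (chr9:7931999-8004596, minus strand), Amotl1 (chr9:14541966-14645056, minus strand) and Amotl2 (chr9:102716672-102733418, plus strand) lie on chromosome 9, and Tead1 (chr7:112679318-112906807, plus strand) and Tead2 (chr7:45215753-45233644, plus strand) on chromosome 7. Wwtr1 is at chr3:57455649-57575910, minus strand, Tead4 at chr6:128224288-128300823, minus strand, Tead3 at chr17:28331671-28350817, minus strand, and Lats1 at chr10:7681214-7716460, plus strand (all GRCm38, GENCODE M21, whole genes).

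The clones themselves differed for part of the genes. In a fit with clone and treatment, the joint test of the clone terms called 2 of the 9 tested members, Tead1 and Tead2, where it called 12.6% of all tested genes. Averaged over both conditions, Tead1 deviated by 0.07, 0.12 and -0.19 on the log2 scale in clones a, b and c (edgeR adjusted p = 0.000907), so clone c had the least. Tead2 deviated by -0.20, -0.02 and 0.23 (edgeR adjusted p = 0.017), so clone c had the most. Tead3 (deviations of -0.12, -0.08 and 0.20) and Lats1 (0.05, 0.09 and -0.14) did not pass (adjusted p = 0.0984 and 0.0645). With 1 library per clone and treatment, whether the response itself differed between clones was not tested.

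The genes whose levels ran most nearly parallel to the strongly changed members over the 6 libraries were found by Pearson correlation of log2 CPM among 9631 genes. For Tead4 they were C77080 (r = 0.997), Itgb1bp1 (r = 0.996) and Sart1 (r = 0.996). For Amotl1 they were Wdr81 (r = 0.999), Plekhh1 (r = 0.999) and Notch1 (r = 0.998), and for Amotl2 Wdr81, Smad3 and Ston2 (r = 0.998 each). Such values are common in these libraries, since the 2 groups dominate them: 1959, 1791 and 1770 genes reached r of 0.9 or more with Tead4, Amotl1 and Amotl2. They are a description over 6 libraries that share treatment and clones.

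Upstream of LATS, the kinase cassette and its activators moved in both directions. Of 26 genes, all tested, 10 rose, 9 fell and 7 did not pass, with a median log2 fold change of -0.15. The shares over all tested genes, 28.5% higher and 28.6% lower with a median of -0.000535, serve as the background for this and the following lists. The STE20 kinase genes Map4k4 (314 ± 23 to 723 ± 46 CPM, log2 fold change 1.21 ± 0.08, edgeR adjusted p = 8.91e-07), Map4k3 (1.13 ± 0.08) and Tnik (0.96 ± 0.08) rose most clearly, MAP4Ks being kinases that can activate LATS in parallel to the MST kinases. Other kinases of these families fell, among them Map4k5 (-0.38) and Taok3 (-1.47). Wwc1, which encodes KIBRA, an activator of the cassette, fell from 173 ± 8 to 106 ± 5 CPM (log2 fold change -0.70 ± 0.07). The core genes split: Stk4 (MST1), Sav1, Mob1a and Mob1b rose by 0.31 to 0.49 on the log2 scale, whereas Stk3 (MST2) and Nf2 (Merlin) had log2 fold changes of -0.36 and -0.40. With library size alone, 5 of the 26 rose and 12 fell. Under that scaling 2407 of all 13869 tested genes rose and 5684 fell, with a median of -0.201. Those values are the background for the library-size counts of this and the following lists. Sav1 (0.18, edgeR adjusted p = 0.0895) and Mob1b (0.11, edgeR adjusted p = 0.18) no longer passed with library size alone. Sav1 and Map4k5 overlap Atl1 on the opposite strand, which had 941 reads. Map4k3 also overlaps another annotated gene, as do Ctnna1, Ptpn14, Btrc, Ywhaq, Crim1 and Krt8 named below, and reads from such neighbours may enter their counts.

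Genes that feed junctions, polarity and cadherins into the pathway mostly rose or did not pass. Of 24 genes, 22 were tested, of which 11 rose, 1 fell and 10 did not pass, with a median of 0.37. With library size alone 9 rose and 1 fell, with a median of 0.17. The polarity gene Pard6b rose from 58.4 ± 2.8 to 158 ± 28 CPM (log2 fold change 1.43 ± 0.11, edgeR adjusted p = 3.4e-06), Ctnna1 (alpha-catenin) from 471 ± 29 to 828 ± 31 and Scrib from 60.4 ± 1.5 to 90.6 ± 3.7. The one that fell was Ptpn14, a phosphatase that binds YAP (log2 fold change -0.67 ± 0.10). Cdh1 (E-cadherin) had 478 ± 86 and 589 ± 133 CPM and did not pass (edgeR adjusted p = 0.131), but it passed as higher with the clone as a replicate block (adjusted p = 8.25e-06).

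Among negative regulators of the cassette and genes for turnover of YAP and TAZ, 14 of 24 tested genes rose, 3 fell and 7 did not pass, with a median of 0.30. Ywhaz, a 14-3-3 protein that can hold phosphorylated YAP in the cytoplasm, rose from 289 ± 7 to 547 ± 16 CPM (log2 fold change 0.92 ± 0.06, edgeR adjusted p = 1.02e-06). Sike1 (1.14 ± 0.09), part of the STRIPAK phosphatase complex that acts against MST kinases, rose as well. Those that fell were Ajuba, a LIM protein that restrains LATS (156 ± 21 to 68.5 ± 2.1 CPM, log2 fold change -1.18 ± 0.09), Btrc (-0.49), which encodes a ubiquitin ligase subunit, and Ywhaq (-0.26), another 14-3-3 gene. With library size alone 10 rose and 6 fell.

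The VGLL proteins compete with YAP and TAZ for TEAD factors. Vgll3 rose from 37.4 ± 2.9 to 68.6 ± 1.6 CPM (log2 fold change 0.88 ± 0.08, edgeR adjusted p = 7.65e-06), and Vgll4, which represses TEAD targets, fell from 65.0 ± 4.1 to 33.7 ± 4.8 CPM (-0.95 ± 0.10, edgeR adjusted p = 2.77e-05). Vgll1 had 33 reads in the untreated and 7 in the treated libraries and Vgll2 had 1 and 1, too few to be tested.

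Of 22 genes described elsewhere as targets of YAP and TEAD, 19 were tested: 8 rose, 4 fell and 7 did not pass, with a median of 0.23. With library size alone 7 rose and 6 fell, with a median of 0.03. Myof rose from 175 ± 25 to 688 ± 106 CPM (log2 fold change 1.97 ± 0.13, edgeR adjusted p = 9.67e-07), F3 from 23.8 ± 2.1 to 52.9 ± 7.1 and Crim1 from 48.6 ± 2.3 to 84.1 ± 6.5. The most used reporters of YAP activity, Cyr61 (30.1 ± 9.2 to 73.7 ± 9.7 CPM) and Ctgf (35.9 ± 8.8 to 68.7 ± 12.5 CPM), rose, and Ankrd1 had 23 reads untreated and 4 after 4OHT, too few to test. Those that fell were Ajuba, Ptpn14, Nuak2 (-0.82) and Asap1 (-0.20), the first 2 of which also belong to lists above. The part of TEAD factors in these changes was not tested.

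Of 12 trophectoderm genes, 10 were tested, and 5 rose, 2 fell and 3 did not pass. With library size alone 4 rose and 2 fell. The keratin genes Krt8 (15.0 ± 4.4 to 55.7 ± 21.2 CPM) and Krt18 (9.37 ± 3.21 to 32.7 ± 10.9 CPM) rose, as did Hand1 at a very low level (0.43 ± 0.18 to 2.28 ± 0.16 CPM). Id2 (39.7 ± 8.8 to 7.19 ± 1.24 CPM, log2 fold change -2.47 ± 0.19, edgeR adjusted p = 2.76e-06) and Tfap2c (80.3 ± 8.1 to 48.6 ± 8.6 CPM) fell. Of the genes that TEAD4 activates in the outer cells of the embryo, Gata3 had 22.8 ± 6.1 and 22.9 ± 2.9 CPM (edgeR adjusted p = 0.961), and Cdx2 had 20 reads untreated and 32 after 4OHT, too few to test.

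**Figure D4:**
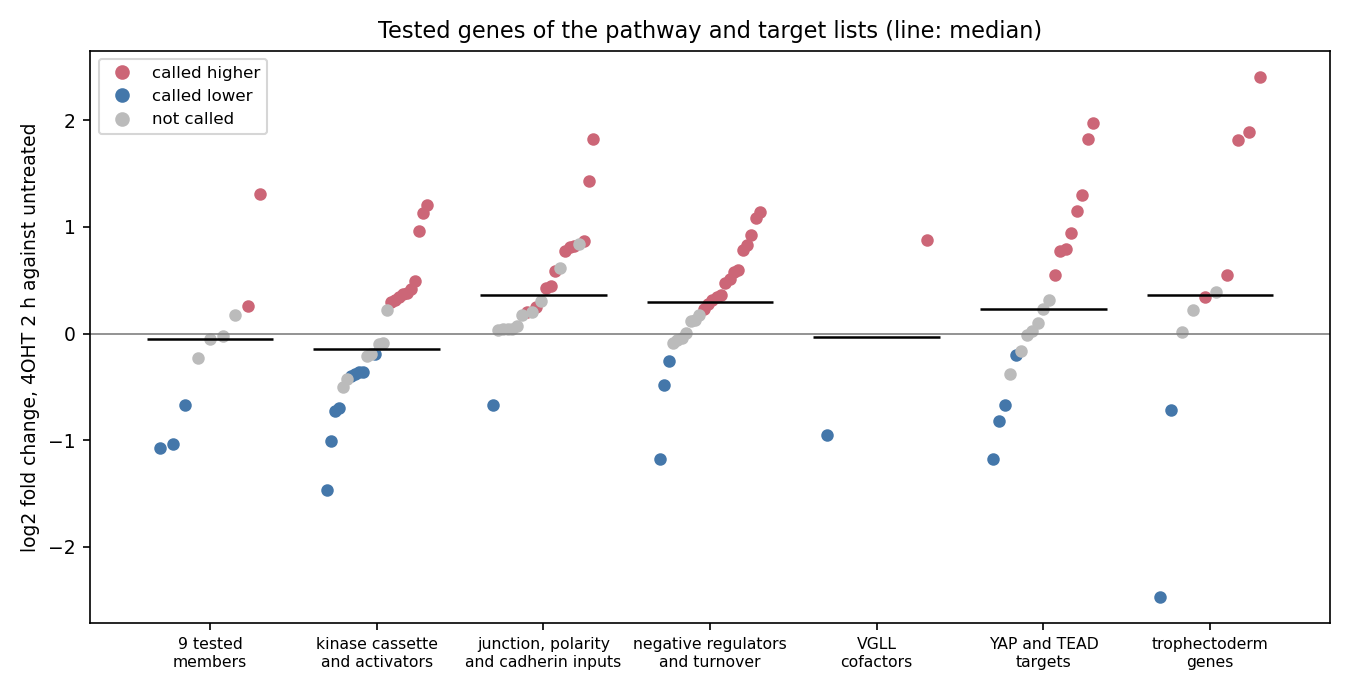
Log2 fold change (vertical axis), 4OHT against untreated, of each tested gene in the 9 tested members and 6 lists of pathway and target genes; points are genes, coloured by the edgeR call, and lines are medians. Genes of junction inputs and negative regulators lie mostly above 0, while the kinase cassette lies on both sides of it.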

How the data were processed

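Nascent RNA of 6 libraries was analysed, a pair (untreated and treated) for each of 3 clones. The values are raw read counts per gene symbol as deposited by the authors, in 1 table. STAR, featureCounts and mm10 were used, per the submitters' processing notes. Their versions, the annotation, the strand setting, the counted feature (exons or whole genes) and the handling of reads shared by 2 genes were not stated in these notes.

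The 6 columns were matched to samples by the clone letter and time in their names. Counts were filtered with filterByExpr (minimum count 10, minimum total 15), which left 13869 of 25899 genes, scaled by TMM and tested with edgeR 4.0.16 (glmQLFit and glmQLFTest, R 4.3.3) with Benjamini-Hochberg adjustment over all tested genes and a threshold of 0.05. The SE of a log2 fold change was taken from it and the root of the F statistic. For log2 CPM, the prior count was 2. The test was checked on simulated counts in which few genes changed, equally in both directions, and the clones did not differ. That check does not cover the widespread changes and clone differences of these data. Replicates of a group differed by more than sampling noise (chi-square per gene 2.24 to 11.4), so no library was a copy of another. Since the labels name separate clones, the spread is that between 3 clones. Libraries with the same letter come from the same clone, and their deviations from the group means correlated (r = 0.282, 0.165 and 0.357, against -0.283 to 0.0682 between clones), so the letters pair the samples; the fit without the clone is reported, and the fit with it is added for named genes whose call it alters.

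Ratios within a library were compared by exact two-sided permutation tests that ignore the pairing by clone, adjusted over 8 ratios. A planned ratio of Lats2 to Lats1 was left out because Lats2 has counts of 0. Positions and lengths came from GENCODE M21 (GRCm38), in which 25557 symbols matched 1 gene, 38 matched several and 304 had no match. Promoter sequences came from RefSeq (GRCm38.p6). Named from each list were the up to 4 called genes with the smallest adjusted p, all VGLL genes and further genes where a count of 5 or fewer called for them, except that some genes under this rule are not reported here; Stk3, Stk4, Sav1, Mob1a, Mob1b, Nf2, Map4k5, Taok3, Amot, Cdh1, Cyr61, Ctgf, Krt8, Krt18, Gata3 and Cdx2 were, as far as they fall outside that rule, chosen after their values were seen. Likeness was computed over genes whose mean log2 CPM reached 3. The members and lists were chosen with earlier results of these data known. The alternatives were other scalings, filters, thresholds, DESeq2 1.42.0, limma 3.58.1 (voom), the replicate block and leaving out libraries or clones.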

Additional observations from a re-analysis of the deposited data

How the results depend on the processing

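Tead4, Amotl1 and Amotl2 kept their direction and call under each of the 20 alternatives, and Tead2 lost its call at a required log2 fold change of at least 1 alone. Over all members and alternatives, 161 log2 fold changes kept direction and side of the threshold, 8 passed it in addition, 6 no longer passed and 5 changed sign, and all 64 ratios recomputed kept their direction. Scaling by library size alone gave 1 member higher in place of 2 and 6 lower in place of 3. Over all tested genes it gave 2407 higher in place of 3953 and 5684 lower in place of 3968. Tead3 was at -0.0272 under that scaling (edgeR adjusted p = 0.869). Upper-quartile scaling gave 1 member higher and 4 lower, with 3152 genes higher and 4756 lower. Requiring a log2 fold change of at least 1 gave 1 member higher, with 947 genes higher and 1324 lower (3968 without it). In the lists that requirement left 2 higher and 2 lower in the kinase cassette, 2 and 0 among junction inputs, 2 and 1 among negative regulators, 0 and 0 among VGLL genes, 4 and 1 among YAP and TEAD targets and 3 and 1 among trophectoderm genes.

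With the replicate block, pairing each treated library with its clone, 2 members were higher and 4 lower in edgeR and in DESeq2, Tead1 being the added one (DESeq2 log2 fold change -0.23, adjusted p = 0.000248). No other member's call changed under the block. In the lists it gave 15 junction genes higher in place of 11, 17 negative regulators higher in place of 14, and 10 targets higher and 5 lower in place of 8 and 4, all moved by less than 1.5 times. Over all tested genes the block in edgeR gave 4725 higher in place of 3953 and 4623 lower in place of 3968. Leaving out single libraries or clones gave 1 to 2 members higher (1 without clone a or without clone b) and 3 to 4 lower. Over these settings the log2 fold change of Wwtr1 ran from -0.1029 to 0.05629 (0.05404 without clone c) and that of Lats1 from -0.1323 to 0.01749 (0.002512 without clone a). Where an arm kept 2 libraries, the spread was shared with the other arm. Without the untreated library of clone c, 2 junction genes fell in place of 1, and without the filter on low counts 2 VGLL genes fell in place of 1. The clone test called 4 members in place of 2 without the filter and 1 by DESeq2's likelihood ratio test. Lats2 alone among the members had too few reads to be tested. With 3 clones per group, the exact tests give p values of 0.1 or more without the pairing. Sign flips within clones give 0.25 or more. Apart from these constructions, the cause of the differences was not tested.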
